A study of Mus musculus with 5 samples.

Results

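BM 0, BM 1 and BM 2 are the sub-clusters of bone marrow (BM) group 2 innate lymphoid cells (ILC2s) that had at most 1 gene higher than in all other BM sub-clusters together. BM 0 had none, BM 1 had Hes1 and BM 2 had Hba-a1. The next sub-cluster above this limit, BM 7, had 5 such genes, and the others had 8 (BM 3 and BM 4), 15 (BM 5) and 38 (BM 6). The genes described here are therefore those of the 1 versus 1 comparisons, in which each sub-cluster was set against every other one. Every list that named BM 0, BM 1 or BM 2 as the higher or the lower side was taken, which gave 36 of the 56 BM lists of this kind. These lists and the 3 lists against all held 136 genes, of 146 in the BM table and 688 in the tables of all 5 tissues. The sub-clusters were selected on the length of the list against all and the genes on the lists themselves, so their contents are given as a description, with no test.

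The donors were male wild-type C57BL/6 mice aged 6 weeks, none of them treated, and their ILC2s came from BM, lung, pancreas, large intestine (LI) and small intestine (SI). BM ILC2s were sorted as lineage-negative ST2+CD25+ cells after the femur and tibia had been flushed, and so were those of LI, lung and pancreas after digestion of the tissue, whereas SI ILC2s were sorted as lineage-negative CD45+ cells with surface KLRG1 and lower Thy1. Each tissue gave 1 droplet single-cell RNA library from 10 pooled mice, with BM and pancreas prepared in one batch and lung, LI and SI in another, so a listing has no replicate error and tissue cannot be told apart from library. The deposited tables name genes but give neither their levels, the fold changes nor the number of cells in a sub-cluster. The depth is unknown, no difference can be given a size, and a gene that is not listed for a pair of sub-clusters is not shown to be equal in them.

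ILC2s are tissue-resident lymphocytes that make type 2 cytokines, and those of BM include cells that mature there before they leave. Immediate early genes, which include the Fos and Jun families that pair to form the transcription factor AP-1, are transcribed within minutes of a stimulus without new protein synthesis. Hes1 encodes a transcriptional repressor that Notch receptors induce when they meet their ligands. Hba-a1 encodes alpha-globin, the chain that pairs with beta-globin in haemoglobin of red cells.

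More genes were listed as lower than as higher in each of the 3 sub-clusters, which was not particular to them. It also held for BM 3 (26 higher and 74 lower), BM 4 (44 and 54), BM 5 (27 and 92) and BM 7 (30 and 35). Only BM 6 went the other way, with 64 higher and 29 lower. BM 0 was higher for 42 genes (28.8% of the genes of the BM table) and lower for 75 (51.4%). BM 1 was higher for 22 (15.1%) and lower for 76 (52.1%). BM 2 was higher for 22 (15.1%) and lower for 75 (51.4%). Over the 3 sub-clusters, 54 genes (37%) were higher and 95 (65.1%) lower in at least 1 list, and no gene appeared in both directions of 1 comparison. Of the genes higher in BM 0, 37 (88.1%) were in 1 list only. In BM 1 this held for 19 (86.4%) and in BM 2 for 17 (77.3%).

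Few genes recurred, and recurrence alone did not make a gene particular to a sub-cluster. Hes1 was in 4 higher lists of BM 1, Cdkn1a in 3 and Gimap3 in 2. Hba-a1 was in 3 higher lists of BM 2, and Fosb, Gimap3, Gm20186 and Rnf128 were in 2 each. Egr1, Ifrd1, Il6ra, Irf1 and Jun were in 2 higher lists of BM 0, and none was in more. Irf1 was in 6 higher lists of BM 6. Jun, Ifrd1 and Gm20186 were higher than in BM 5 in 6 of the 7 other sub-clusters, and Rnf128 was in 5 lower lists of BM 3.

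**Figure D1:**
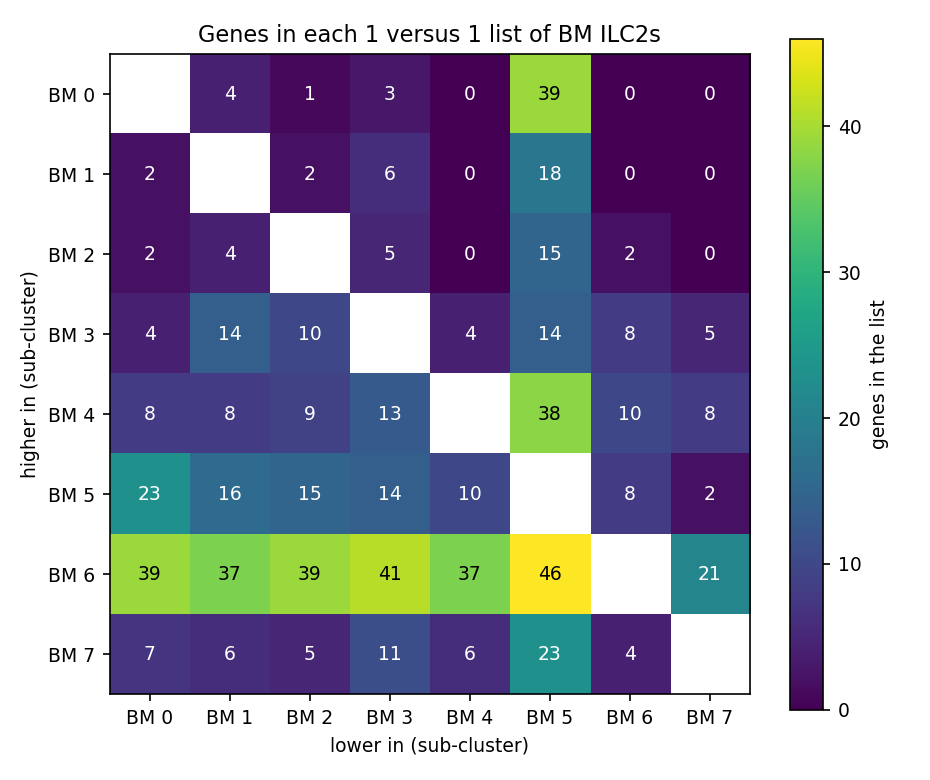
Number of genes in each 1 versus 1 list of BM ILC2s. Rows are the sub-cluster in which the genes were higher, columns the one in which they were lower, and colour and digits give the number of genes. The rows of BM 0, BM 1 and BM 2 hold 8 empty lists of 21, and their largest values, 39, 18 and 15, stand in the column of BM 5.

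The comparisons of BM 0, BM 1 and BM 2 with each other held 15 entries for 12 genes (8.22% of the BM table). BM 0 was higher than BM 1 for 4 genes (2.74%), namely Fos, Jun and Egr1, which are immediate early transcription factor genes, and Stab2, a scavenger receptor gene. BM 1 was higher than BM 0 for Hes1 and Gimap3, a gene of the immunity-associated GTPases (2 genes, 1.37%). Of these 6 genes, the immediate early ones were all on the side of BM 0.

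BM 0 was higher than BM 2 for Ifrd1 alone, a transcriptional coregulator gene (1 gene, 0.685%), and BM 2 was higher than BM 0 for Hba-a1 and Gimap3 (2 genes, 1.37%). Gimap3 was thus lower in BM 0 than in both of the others. BM 2 was higher than BM 1 for Fos, Fosb, Klf6 and Gm26802 (4 genes, 2.74%), of which Klf6 encodes a zinc finger transcription factor and Gm26802 is annotated as a long intergenic non-coding RNA. BM 1 was higher than BM 2 for Hes1 and Cdkn1a, the gene of the cell cycle inhibitor p21 (2 genes, 1.37%).

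In the comparisons with BM 0 and BM 2, Fos, Jun, Fosb, Egr1 and Klf6 were listed only as lower in BM 1. Fos was lower in BM 1 than in BM 0, BM 2 and BM 3, and no list separated those 3 from each other for Fos. Klf6 was lower in BM 1 than in BM 2, BM 3 and BM 6. Gm26802 was lower in BM 1 than in BM 2, BM 3, BM 6 and BM 7, the most lower lists of any gene in the 3 sub-clusters. Gm26802 (chr7:19298260-19300770, mm10, minus strand) starts 1925 bases downstream of the end of Fosb (chr7:19302696-19310051) on the same strand. Both were higher in BM 2 than in BM 1, and whether reads past the annotated end of Fosb were counted for Gm26802 was not tested.

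The start regions of Fos and Jun are printed here because both AP-1 genes were higher in BM 0 than in BM 1, and Fos also in BM 2 than in BM 1. That of Hba-a1 is printed because it is the gene listed for BM 2, and that of Nfkbia, the gene of the NF-kB inhibitor I-kappa-B-alpha, because it was higher than in BM 5 in BM 0 and BM 1 (chosen after its lists had been seen). Each runs from 250 bases before to 50 after the start site in RefSeq for GRCm38.p6, the assembly of mm10, 5′ to 3′ on the strand of the gene.

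Hba-a1, chr11:32283422-32283721, plus strand: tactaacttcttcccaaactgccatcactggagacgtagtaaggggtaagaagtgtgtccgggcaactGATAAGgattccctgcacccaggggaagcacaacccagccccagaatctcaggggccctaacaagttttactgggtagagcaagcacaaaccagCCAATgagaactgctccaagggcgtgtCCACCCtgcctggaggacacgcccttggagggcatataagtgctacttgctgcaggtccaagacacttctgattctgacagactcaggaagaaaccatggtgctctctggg
Fos, chr12:85473640-85473939, plus strand: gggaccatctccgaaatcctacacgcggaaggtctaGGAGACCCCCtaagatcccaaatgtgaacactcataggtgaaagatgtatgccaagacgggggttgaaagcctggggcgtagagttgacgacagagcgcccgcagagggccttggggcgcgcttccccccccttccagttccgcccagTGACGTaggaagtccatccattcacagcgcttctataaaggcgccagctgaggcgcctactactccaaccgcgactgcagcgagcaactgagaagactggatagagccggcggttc
Jun, chr4:95052173-95052472, minus strand: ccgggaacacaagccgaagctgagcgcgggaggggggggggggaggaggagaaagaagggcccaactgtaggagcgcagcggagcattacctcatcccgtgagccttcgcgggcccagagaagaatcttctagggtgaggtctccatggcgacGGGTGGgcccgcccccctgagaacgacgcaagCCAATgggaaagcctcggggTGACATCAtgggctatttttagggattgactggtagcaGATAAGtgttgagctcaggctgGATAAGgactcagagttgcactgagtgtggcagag
Nfkbia, chr12:55492598-55492897, minus strand: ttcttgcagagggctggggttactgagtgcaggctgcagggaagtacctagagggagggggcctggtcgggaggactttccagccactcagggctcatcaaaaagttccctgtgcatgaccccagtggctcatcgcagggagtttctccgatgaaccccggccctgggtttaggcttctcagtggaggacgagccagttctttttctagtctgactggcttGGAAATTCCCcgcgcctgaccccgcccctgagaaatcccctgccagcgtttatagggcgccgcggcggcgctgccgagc

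Capitals mark every match to 7 short motifs, searched on both strands, which were the 6 named next and TGANTCA, the AP-1 motif. In Hba-a1 these are GATAAG, the letters bound by GATA factors, 182 to 177 bases before the start site, CCAAT at 88 to 84 and CCACCC, bound by Krüppel-like factors, at 61 to 56. In Fos, TGACGT, the core bound by CREB and ATF factors, stands 66 to 61 bases before the start site, and the NF-kB consensus at 214 to 205 on the opposite strand. In Jun, CCACCC stands at 97 to 92 on the opposite strand, CCAAT at 65 to 61, TGACATCA, a variant of the AP-1 site, at 45 to 38, and GATAAG at 7 to 2 and again after the start site. In Nfkbia the NF-kB consensus stands at 29 to 20 on the opposite strand, and the capitals in all sequences give the gene's own strand. A match is a description of letters and not a bound site. The Hba-a1 gene starts further upstream in GENCODE, which gave the gene coordinates, so its CCAAT and CCACCC lie inside the gene there. Of 27025 genes with a start region, 8.58% held GATAAG, 41.1% CCAAT, 34% CCACCC, 8.37% TGACGT, 4.18% TGACATCA and 9.55% the NF-kB consensus. Of the 146 genes of the BM table, 113 had a start region in the RefSeq table.

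Hes1 (chr16:30064384-30067796) was listed as higher in BM 1 than in BM 0, BM 2, BM 3 and BM 5. It was also higher in BM 4 than in BM 3 and BM 5. The lists thus put BM 1 above 4 of the 7 other sub-clusters for Hes1, and no list separated it from BM 4, BM 6 or BM 7. Hes1 came before the other genes in all 4 of these lists, although the sources used here do not say what the order within a list stands for. Of the 28 genes of a Notch pathway list, 2 were in the BM table. Notch2, the receptor gene, was higher in BM 4 than in all 7 other sub-clusters. Its lower listing in BM 0, BM 1 and BM 2 was thus shared with BM 3, BM 5, BM 6 and BM 7.

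Cdkn1a (chr17:29090976-29100727) was higher in BM 1 than in BM 2, BM 3 and BM 5, and higher in BM 0 than in BM 3. In BM 2 it was in no higher list. BM 3 was lower for Cdkn1a than 5 sub-clusters, and 5 of the 7 BM lists that hold it have BM 3 as the lower side. Alox5, which encodes the leukotriene-forming enzyme 5-lipoxygenase, and Gm49339, a predicted protein-coding gene, were higher in BM 1 than in BM 3 and were in no other BM list.

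Hba-a1 (chr11:32283511-32284465) was higher in BM 2 than in BM 0, BM 3 and BM 6. It was also higher in BM 5 than in BM 0, BM 1 and BM 3. BM 2 and BM 5 each stood above 3 sub-clusters, and no list separated them from each other. Of 12 erythroid genes, which included the beta-globin genes and the haem synthesis gene Alas2, Hba-a1 was the only one in the BM table. The part of free RNA from red cells in this listing was not tested. Hba-a1 has a near-identical copy, Hba-a2, and its counts are uncertain for that reason. Over 538 aligned bases of their transcripts 537 were identical (99.8%, 1 mismatch and no gap), and their start regions shared an unbroken run of 297 of 300 bases. Hba-a2 was in none of the 5 tables.

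Gimap3 (chr6:48764464-48770851) and Rnf128, the gene of the E3 ubiquitin ligase GRAIL (chrX:139563316-139673145), were higher in at least 1 list of BM 1 and of BM 2 and in none of BM 0. Gimap3 was higher in BM 1, BM 2 and BM 5 than in both BM 0 and BM 3, and in BM 7 than in BM 3. Rnf128 was higher in BM 1, BM 2, BM 4, BM 5 and BM 7 than in BM 3, and higher in BM 2 than in BM 6. BM 0 was lower in 3 lists for Gimap3, more than for any other gene, and was named in no list for Rnf128.

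**Figure D2:**
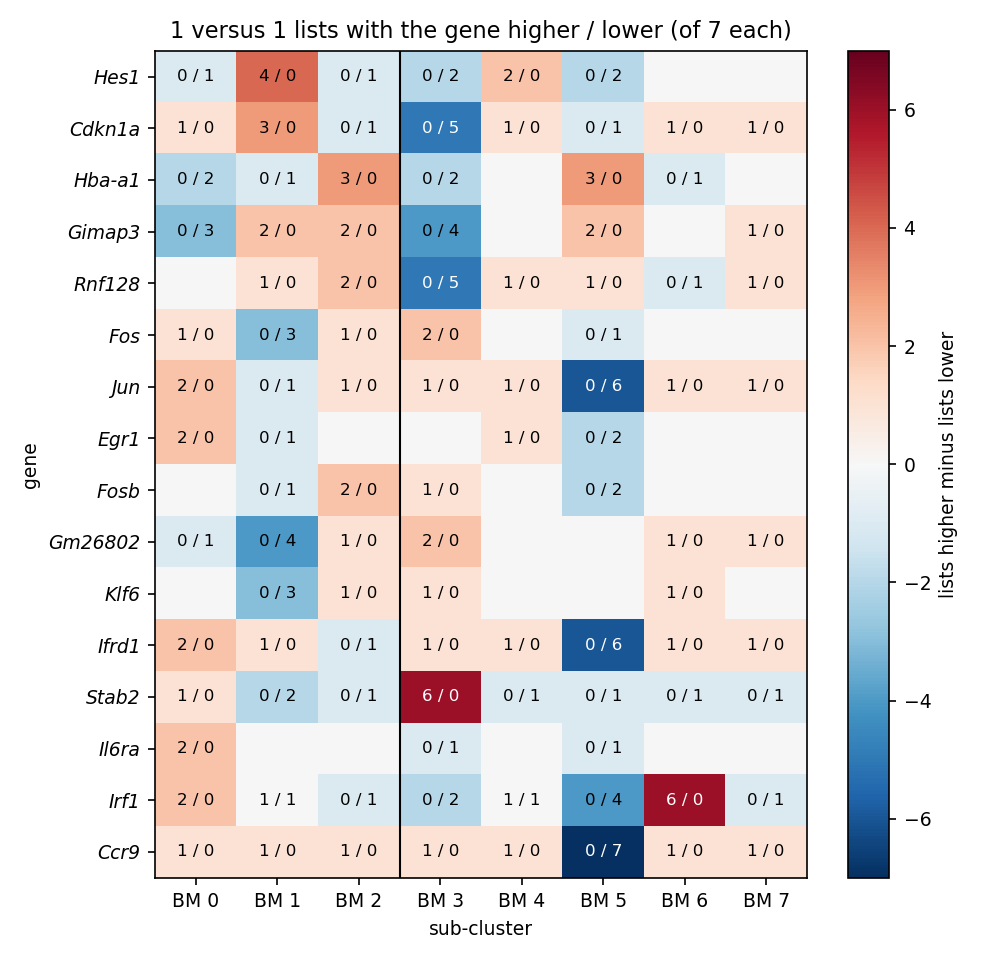
Number of 1 versus 1 lists, of 7 in each direction, that held 16 genes as higher / lower in each BM sub-cluster; colour gives lists higher minus lists lower, and blank cells are genes in no list of that sub-cluster. Hes1 stands at 4 / 0 in BM 1 and Hba-a1 at 3 / 0 in BM 2, whereas no gene shown exceeds 2 / 0 in BM 0.

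Against BM 3 the higher lists were short. BM 0 was higher for Irf1, an interferon-regulated transcription factor gene, Il6ra, the gene of the interleukin-6 receptor alpha chain, and Cdkn1a (3 genes, 2.05%). BM 1 was higher for 6 genes (4.11%), which were Hes1, Cdkn1a, Gimap3, Rnf128, Alox5 and Gm49339. BM 2 was higher for 5 genes (3.42%), which were Rnf128, Gimap3, Klf2, Hba-a1 and Gm20186. Klf2 encodes a Krüppel-like factor that keeps lymphocytes quiescent and circulating, and Gm20186 is annotated as a long intergenic non-coding RNA.

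In the other direction, 15 genes were higher in BM 3 than in at least 1 of the 3. They numbered 4 for BM 0 (2.74%), 14 for BM 1 (9.59%) and 10 for BM 2 (6.85%). Lgals1, which encodes galectin-1, S100a4, which encodes a calcium-binding protein, and Vim, which encodes vimentin, were lower in all 3. Stab2 was higher in BM 3 than in every sub-cluster except BM 0, and BM 0 was in turn higher than BM 1 for it. Icos, a costimulatory receptor gene of ILC2s, and S100a6, of the same family as S100a4, were lower in BM 1 and BM 2 than in BM 3. Ccr2, a chemokine receptor gene, was lower than in BM 3 in BM 1 only of the 3, and lower than in BM 5 in BM 1 and BM 2.

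**Figure D3:**
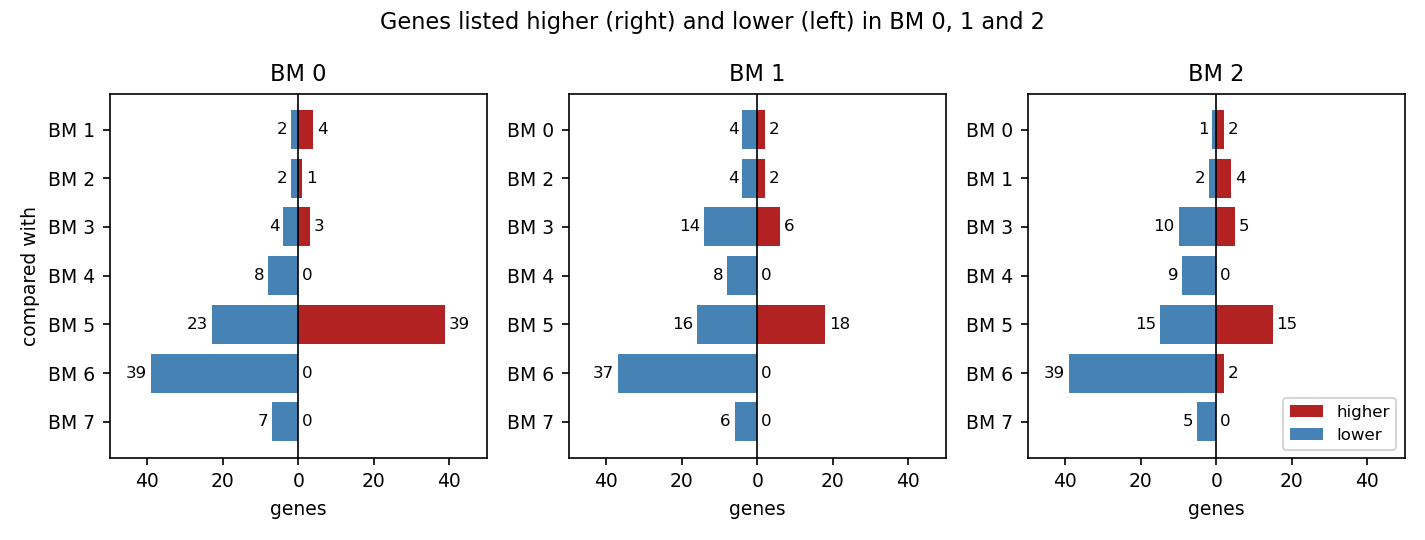
Genes listed as higher (red, to the right) and lower (blue, to the left) in BM 0, BM 1 and BM 2 against each other BM sub-cluster, in number of genes. The most higher genes stand against BM 5, with 39, 18 and 15, and the most lower genes against BM 6, with 39, 37 and 39.

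Most of the genes that were higher in the 3 sub-clusters came from the comparison with BM 5. BM 0 was higher than BM 5 for 39 genes (26.7%), BM 1 for 18 (12.3%) and BM 2 for 15 (10.3%). For 34 of the 39 genes of BM 0, 16 of the 18 of BM 1 and 13 of the 15 of BM 2, this was the only higher list of that sub-cluster. Without the comparison with BM 5, which was left out after the lists had been seen, 8 genes were higher in BM 0, 6 in BM 1 and 9 in BM 2. The comparisons of all sub-clusters with BM 5 share the cells of BM 5, so genes that they have in common are no independent evidence. BM 5 was higher than BM 3 for 14 genes and lower for 14, and it was lower than BM 4 for 38 genes, BM 6 for 46 and BM 7 for 23.

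The 3 lists against BM 5 held 44 genes, 8 of them in all 3, 12 in 2 and 24 in 1. Ccr9, a chemokine receptor gene of gut homing, Tnfaip3, which encodes the NF-kB inhibitor A20, and Zfp36, which encodes the mRNA-destabilising protein tristetraprolin, were higher than in BM 5 in all 7 other sub-clusters. The others in all 3 lists were Junb of AP-1, Klf9 of the Krüppel-like factors, Nfkbiz, an atypical inhibitor of NF-kB, Ppp1r15a, which is induced by stress and restores translation, and Gm20186. Junb and Klf9 were named here after their lists had been seen. Each of these 5 was also higher than BM 5 in BM 4, BM 6 and BM 7, but not in BM 3.

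The lists against BM 5 differed in content between the 3 sub-clusters. A gene in 1 of these lists and absent from another is not thereby shown to differ between those sub-clusters. Jun (chr4:95049034-95052222) was higher than in BM 5 in BM 0, BM 2, BM 3, BM 4, BM 6 and BM 7, so BM 1 was the only sub-cluster without it. Ifrd1 (chr12:40201567-40248504) was higher than in BM 5 in BM 0, BM 1, BM 3, BM 4, BM 6 and BM 7, and here BM 2 was the exception. Egr1 (chr18:34859823-34864984) was higher than in BM 5 in BM 0 and BM 4, and Fosb in BM 2 and BM 3. Hes1 was higher than in BM 5 in BM 1 and BM 4, and Cdkn1a in BM 1 alone. Maff, a small Maf factor gene, and Hspa5, which encodes the endoplasmic reticulum chaperone BiP, were listed for BM 0 and BM 1 but not for BM 2. No list separated the 3 from each other for either gene.

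Of the 3 sub-clusters, BM 0 alone was higher than BM 5 for the cytokine receptor genes Il6ra (chr3:89864059-89913196) and Il2rg, the gene of the common gamma chain that interleukin-2 and interleukin-7 receptors share. Il6ra was also higher in BM 0 than in BM 3 and was in no other BM list. Further genes higher than in BM 5 in BM 0 alone, named after the lists had been seen, were Ier2 and Klf10, both induced early by growth factors, Tsc22d3, which glucocorticoids induce, and Dnajb9, a chaperone of the endoplasmic reticulum.

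**Figure D4:**
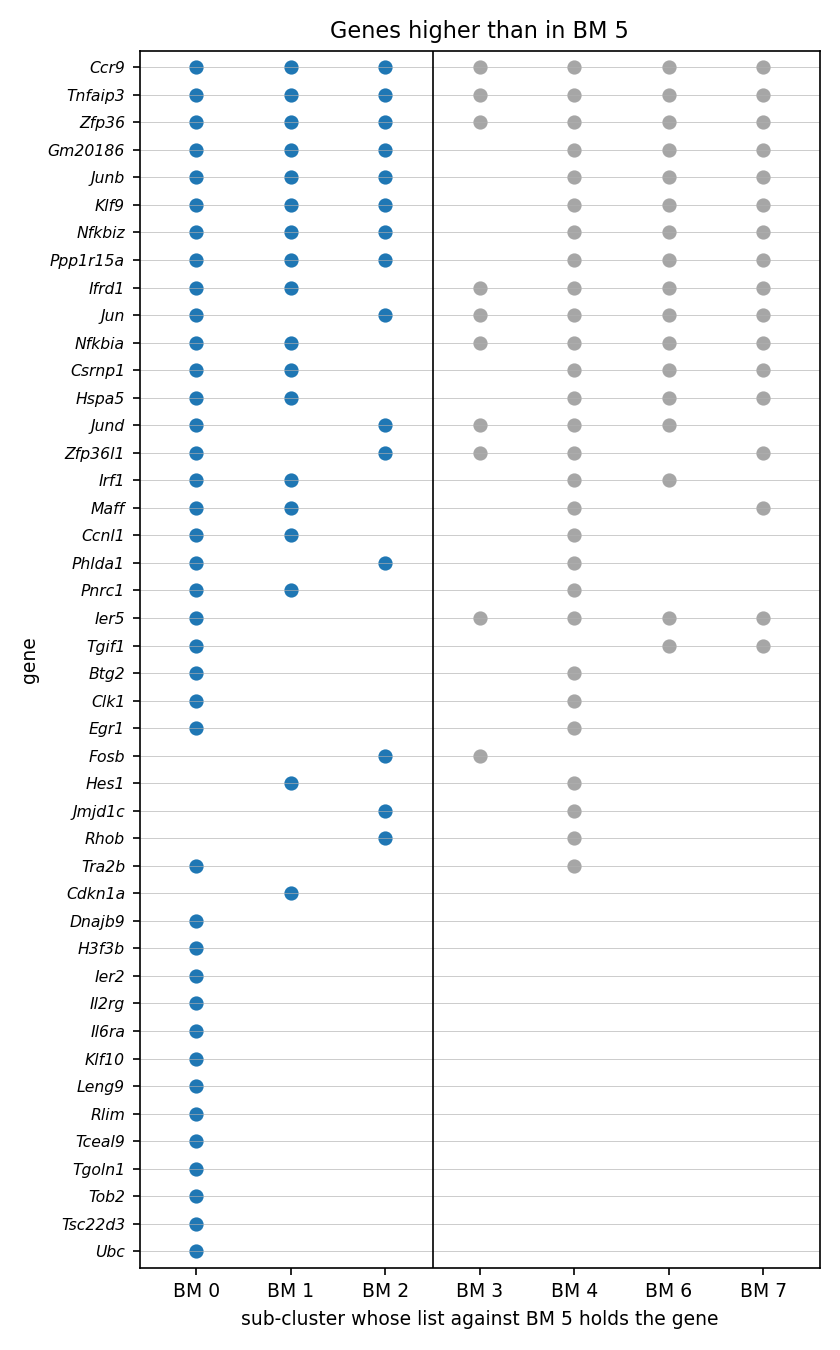
The 44 genes (rows) listed as higher than in BM 5 by BM 0, BM 1 or BM 2 (blue points), with the lists of BM 3, BM 4, BM 6 and BM 7 (grey points) beside them. Ccr9, Tnfaip3 and Zfp36 have a point in all 7 columns, Jun lacks one in BM 1, and the lowest rows have a point in BM 0 alone.

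A list of 45 immediate early and AP-1 genes had 22 in the BM table. In BM 0, 17 of these were higher in at least 1 list and 1, Ier3, was lower. In BM 1, 8 were higher and 6 lower, the latter being Fos, Fosb, Jun, Egr1, Ier3 and Klf6. In BM 2, 12 were higher and 3, Ier3, Rgs2 and Cdkn1a, were lower. For comparison, 28.8%, 15.1% and 15.1% of the BM table were higher in BM 0, BM 1 and BM 2, and 51.4%, 52.1% and 51.4% were lower. Most of the higher entries came from the comparison with BM 5, and these were not particular to the 3. Jun, Junb, Zfp36, Ppp1r15a, Nfkbiz and Tnfaip3 were also higher than in BM 5 in BM 4, BM 6 and BM 7. The same held for Maff in BM 4 and BM 7 and for Egr1 in BM 4. Among BM 0, BM 1 and BM 2 the members of this list were Fos, Jun, Egr1, Fosb, Klf6 and Cdkn1a.

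In the start regions of the genes higher than in BM 5 in any of the 3, TGACGT stood in 9 of 35 (25.7%), against 17 of 113 (15%) in the BM table and 8.37% of all start regions. The AP-1 motif TGANTCA stood in 5 of 35 (14.3%), against 18 of 113 (15.9%) and 8.97%. The NF-kB consensus stood in 8 of 35 (22.9%), against 27 of 113 (23.9%) and 9.55%. TGANTCA and the NF-kB consensus thus lay slightly below the BM table, whereas the remaining motifs, like TGACGT, lay above it. CCAAT stood in 18 of 35 (51.4%) against 43 of 113 (38.1%), and CCACCC in 20 (57.1%) against 58 (51.3%). TGACATCA stood in 3 (8.57%) against 4 (3.54%), and GATAAG in 3 (8.57%) against 9 (7.96%). These shares were not tested.

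BM 5 was higher than BM 0 for 23 genes (15.8%), than BM 1 for 16 (11%) and than BM 2 for 15 (10.3%), and 13 of 24 distinct genes were in all 3 lists. Ccl3 and Ccl6, both chemokine genes, came before the others. Also in all 3 were Tyrobp and Fcer1g, adaptor genes of activating receptors, the chemokine receptor gene Cxcr6, and Lgals1, S100a4, S100a6 and Vim. The chemokine gene Ccl9 was lower in BM 0 and BM 1 only of the 3, and Slfn2, of the Schlafen family, in BM 0 and BM 2.

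Of 16 basophil and mast cell genes, 5 were in the BM table, and all 5 were lower in BM 0, 4 in BM 1 and 3 in BM 2, where 51.4%, 52.1% and 51.4% of the whole BM table were lower. This was not particular to the 3, since Fcer1g, Ccl3, Ccl6 and Ccl9 were also lower in BM 3 than in BM 5. Mcpt8, a protease gene that defines mouse basophils, was higher in BM 5 than in BM 0 among the 1 versus 1 lists and in the list of BM 5 against all. Of 20 myeloid genes, Tyrobp and Fcer1g were in the BM table, both lower in all 3, and the other members of that list, such as Lyz2 and S100a8, were in no BM list. Cells with surface FceRI, which basophils and mast cells carry, were gated out by the sort as a lineage marker, together with CD3, B220, CD11b and CD11c. The part of basophil RNA or cells in BM 5, and so in the lists of BM 0, BM 1 and BM 2 against it, was not tested. None of 13 B and plasma cell, 12 T cell, 7 ILC3 and 13 endothelial and stromal genes was in the BM table. Ccl5, of 12 NK cell and ILC1 genes, was lower in BM 0 than in BM 7, and Ly6a, which encodes Sca-1, of 12 progenitor genes, was lower in all 3 than in BM 6.

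The longest lower lists were those against BM 6, with 39 genes for BM 0 (26.7%), 37 for BM 1 (25.3%) and 39 for BM 2 (26.7%). Of the 45 distinct genes, 33 were in all 3. Gbp2, an interferon-induced GTPase gene, and Isg15, which encodes an interferon-induced modifier of proteins, were lower in all 3. Both were higher in BM 6 than in all 7 other sub-clusters. BM 0 and BM 1 were higher than BM 6 for no gene, and BM 2 was higher for Hba-a1 and Rnf128 (2 genes, 1.37%).

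A list of 92 interferon response genes had 34 in the BM table, of which 32 were lower in BM 0, 29 in BM 1 and 31 in BM 2, beside 51.4%, 52.1% and 51.4% of the whole BM table. This was not particular to the 3. Most of the 34 were also lower in at least 1 list of BM 3, BM 4 and BM 5, and BM 6 was higher than these for 41, 37 and 46 genes. Irf1 (chr11:53770014-53778374) stood apart from the rest. It was higher in BM 6 than in BM 1, BM 2, BM 3, BM 4, BM 5 and BM 7 but not BM 0, and it was higher in BM 0 than in BM 3 and BM 5. In BM 1 Irf1 was higher than in BM 5 and lower than in BM 6, the only gene that was both higher and lower in 1 of the 3 sub-clusters. Irf1 was lower in BM 2 than in BM 6 and was in no higher list of BM 2.

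The interferon-induced genes of MHC class I peptide loading were part of this difference. Of 20 MHC class I genes, 6 were in the BM table, and all 6 were lower in BM 0, 4 in BM 1 and 4 in BM 2, beside the same 51.4%, 52.1% and 51.4% of the BM table. Tap1, the peptide transporter gene, Psmb10, an immunoproteasome subunit gene, Psme2, of the proteasome activator, and H2-T23, a non-classical class I gene, were lower in all 3 than in BM 6. The same genes were also lower in BM 3 and BM 4 than in BM 6. Serpina3g, a protease inhibitor gene, was lower in BM 0 than in BM 5 and BM 6 and was not listed for BM 1 or BM 2.

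Against BM 7 the lower lists held genes of MHC class II, which presents peptides from outside the cell to CD4+ T cells. They had 7 genes for BM 0 (4.79%), 6 for BM 1 (4.11%) and 5 for BM 2 (3.42%). Cd74, the invariant chain gene, H2-Ab1, H2-Aa and H2-Eb1, which encode class II chains, and H2-DMa, which helps to load the peptide, were lower in all 3. These were the 5 genes in the BM table of a list of 12 class II genes. Cd74, H2-Ab1, H2-Aa and H2-Eb1 were higher in BM 7 than in all 7 other sub-clusters, and H2-DMa than in 6. Cd74 was lower than in BM 6 as well in BM 0 and BM 2. No gene was higher in BM 0, BM 1 or BM 2 than in BM 7.

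No gene was higher in BM 0, BM 1 or BM 2 than in BM 4 either. BM 4 was higher for 8 genes than BM 0 (5.48%), for 8 than BM 1 (5.48%) and for 9 than BM 2 (6.16%), and the same 8 were in all 3 lists. They were Notch2 (chr3:98013527-98150361), Actb, the gene of beta-actin, Kdm6b, a histone demethylase gene (chr11:69398508-69413675), Kmt2d, a histone methyltransferase gene, Ncoa3, a coactivator of nuclear receptors, Cbx3, a heterochromatin protein gene, Sdc4, a heparan sulfate proteoglycan gene of the cell surface, and Gnb1, of the G protein beta subunits. Slc25a36, a mitochondrial carrier gene named after the lists had been seen, was lower in BM 2 only of the 3. All 4 members that a list of 22 chromatin regulators had in the BM table were thus lower in the 3 sub-clusters than in BM 4. This was not particular to the 3. Kdm6b, Kmt2d, Ncoa3, Notch2, Sdc4 and Actb were higher in BM 4 than in all 7 other sub-clusters. Gnb1 was higher in BM 4 than in 6 of them and Cbx3 than in 5.

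Genes of ILC2 identity set the 3 sub-clusters apart in few lists. Of 26 such genes, 4 were in the BM table. Ccr9 was higher than in BM 5 in all 3 and Il2rg in BM 0, and Icos was lower than in BM 3 in BM 1 and BM 2. The transcription factor gene Gata3 and the sorted surface markers Il1rl1 (ST2) and Il2ra (CD25) were in no BM list, and the lists do not give the level of genes that all sub-clusters share. Of 19 type 2 effector genes, the only one listed was Cxcr6, lower in all 3 than in BM 5, and Il5 and Il13 were in no BM list. Of 30 cell cycle genes, Cdkn1a was the only one listed for BM 0, BM 1 or BM 2.

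Short lists against all were not limited to BM. LI 4 had 0 genes against all, SI 5 had 1 and LI 2 had 2. Pancreas 2 and pancreas 3 had no gene against all and pancreas 0 had 2, and the higher lists of pancreas 0, 2 and 3 held 24, 10 and 32 genes and their lower lists 76, 83 and 56. Lung 0 and lung 3 had 4 and 2 genes against all, with 52 and 71 genes higher and 74 and 53 lower. Of the genes with an entry, counted in each direction, 35.9% were higher in BM 0, 22.4% in BM 1 and 22.7% in BM 2, against 24%, 10.8% and 36.4% in the pancreas sub-clusters and 41.3% and 57.3% in those of lung. The share was 43.3% in LI 4, 18% in SI 5 and 47.1% in LI 2. These values stand side by side with no test, since each tissue had 1 library.

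The genes higher in BM 0, BM 1 and BM 2 were also listed in other tissues. Lung 3 had Hes1 and Cdkn1a as its only genes against all, and both were higher in BM 1 (2 of 22 genes, 9.09%, and 100% of the lung list). Over all lung sub-clusters, 22.7% of the genes higher in BM 1 were in a list against all, beside 17.8% of the BM table. Over the 1 versus 1 lists, BM 1 and lung 3 shared 16 higher genes, 72.7% of those of BM 1 and 22.5% of those of lung 3, where 19.2% of the BM table was higher. BM 1 shared nearly as many with lung 5 (15, 68.2%, against 26.7% of the BM table), and 14 (63.6%) with each of lung 2, LI 0, LI 7 and SI 0, in which 18.5%, 23.3%, 39% and 20.5% of the BM table were higher. Hes1 was also in the lists against all of lung 5, LI 0 and SI 0.

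Lung 0 had 4 genes against all, Fos, Jun, Klf2 and Klf6, and all were higher in BM 2 (18.2% of 22 genes, and 100% of the lung list). Over all lung sub-clusters, 27.3% of the genes higher in BM 2 were in a list against all, beside 17.8% of the BM table. BM 2 and lung 0 shared 14 higher genes, 63.6% and 26.9% of their lists, where 19.2% of the BM table was higher in lung 0. BM 2 shared 11 (50%) with each of LI 2, LI 3 and lung 5, in which 22.6%, 15.1% and 26.7% of the BM table were higher. LI 3 had 9 genes against all, of which Fos, Fosb, Jun, Klf2 and Klf6 were higher in BM 2 (22.7% and 55.6%). Over all LI sub-clusters, 40.9% of the genes higher in BM 2 were in a list against all, near the 41.1% of the BM table. Such overlaps were not limited to lung and LI. Pancreas 1 shared 4 of its 13 genes against all with BM 2 (18.2% and 30.8%), among them Fos, Fosb and Klf6. SI 1 shared 4 of 17 (18.2% and 23.5%), among them Jun, Klf2 and Klf6, and SI 0 shared 5 of 27 (22.7% and 18.5%). Over all sub-clusters the share was 18.2% for pancreas and 45.5% for SI, beside 13% and 22.6% of the BM table. The entries against BM 5 account for Jun in BM 2, those against BM 1 for Fos and Klf6, and that against BM 3 for Klf2.

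BM 0 shared 24 higher genes with LI 0 (57.1% and 11.2%) and 24 with lung 3 (57.1% and 33.8%), in which 23.3% and 19.2% of the BM table were higher. It shared 23 (54.8%) with each of LI 5 and lung 5, in which 22.6% and 26.7% of the BM table were higher. Of the 39 genes of LI 0 against all, 12 were higher in BM 0 (28.6% and 30.8%), among them Cdkn1a, Egr1, Ifrd1, Maff, Tnfaip3 and Zfp36. Over all sub-clusters of a tissue, 40.5% of the genes higher in BM 0 were in an LI list against all, and 16.7% in one of lung. For SI this share was 40.5% and for pancreas 4.76%. The BM table had 41.1% for LI, 17.8% for lung, 22.6% for SI and 13% for pancreas, so LI and lung lay near it. Of the genes higher in BM 0, 69% were in the LI table, 61.9% in that of lung, 61.9% in that of SI and 23.8% in that of pancreas, against 59.6%, 37%, 35.6% and 27.4% of the whole BM table. The shares in the pancreas table, prepared in the same batch as BM, were 23.8% for BM 0, 18.2% for BM 1 and 45.5% for BM 2, so those of BM 0 and BM 1 lay below the 27.4% of the BM table and that of BM 2 above it. Several genes of BM 0, BM 1 and BM 2 had few or no lists elsewhere. Il6ra and Alox5 were in no list of another tissue, Gimap3 was in 1 list of LI and Rnf128 in 2. The lists of a tissue compare its own sub-clusters only, so absence from them does not give the level there. Comparing tissues, the paper reports Alox5 as a feature of pancreas ILC2s and Il6ra as one of BM ILC2s. Hba-a1 was in 2 lists of pancreas, as higher in pancreas 5 than in pancreas 0 and pancreas 2, and in none of LI, lung or SI. The tables differ in length, and the part of this in these shares was not tested.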

How the data were processed

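Per the submitters' processing notes, the authors used Cell Ranger, Seurat version 2 and R version 3.6.1 with mm10. Per the study's methods, cells were filtered with scater, log-normalised and clustered within each tissue, and clusters with markers of other cell types were removed, while how doublets were treated is not stated there, and the lists allow no check. The deposited BM table holds gene symbols only, 64 lists in all, and a list with the entry NA was taken as empty. The sources used here do not give the threshold of a listing. A gene was counted as higher or lower in a sub-cluster if at least 1 of its 7 lists held it. Percentages beside counts are shares of the 146 genes of the BM table, because the genes the authors tested are not known. All 146 symbols matched 1 gene of GENCODE M21 (mm10, coordinates 1-based), and start regions came from RefSeq (GRCm38.p6). Python 3.11.15 and matplotlib 3.10.9 were used, and the reading of lists was checked on simulated tables. The sub-clusters, 21 gene lists and tests were chosen with earlier results of these data known. Genes were named if they were listed against all, listed among BM 0, BM 1 and BM 2, in the most lists of a direction (at most 12), or among the first 4 of a gene list by the same order, and other names are marked. Alternatives were more lists per gene, fewer comparisons and current RefSeq names.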

Additional observations from a re-analysis of the deposited data

How the results depend on the processing

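The number of genes depended on how many lists were asked for. With at least 2 of the 7 lists, higher genes numbered 5 in BM 0, 3 in BM 1 and 5 in BM 2, and lower genes 9, 9 and 6, and the members of the 21 gene lists summed over the 3 sub-clusters and both directions went from 269 to 28. With at least 4 lists, 0, 1 (Hes1) and 0 genes were higher and 0, 1 (Gm26802) and 0 lower. Among BM 0, BM 1 and BM 2 alone, 5, 3 and 6 genes were higher and 3, 7 and 3 lower. Without the comparisons with BM 6 and BM 7, 33, 36 and 33 genes were lower in BM 0, BM 1 and BM 2, and the higher counts stayed at 42, 22 and 22. Without the comparison with BM 5, which was chosen after seeing the data, 8, 6 and 9 genes were higher, and 59, 65 and 65 were lower. Current RefSeq names changed no count. Of 37 alternative values, 12 were within 1.5 times the reported one. No paired analysis was possible because each tissue had 1 library of 10 pooled mice and no replicate, so no library could be left out. The tables give no depth, cell number or threshold, and what sets the length of a list was not tested.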
